A study of Mus musculus with 8 samples.

Results

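Cubilin, encoded by Cubn, and the proteins it works with, amnionless (Amn), megalin (Lrp2) and the adaptor disabled 2 (Dab2), were followed across 8 Affymetrix arrays of mouse small intestinal epithelium. These 4 genes were chosen from a total of 19938, Cubn because it was lower in all 4 of the comparisons between YAP/TAZ and control nucleic acids, and the other 3 for their place in the same endocytic route. The 4 genes had 5 probe sets that name them alone: 2 for Dab2 and 1 for each of the others. The values that chose Cubn are given as a description, with no test.

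The tissue came from male ICR mice of 8 weeks, an outbred stock, and RNA was taken 4 days after the small intestine had been transfected in the living animal. In the siRNA arm, 3 arrays labelled siYAP/TAZ, from intestine given siRNAs against YAP and TAZ, were set against 3 siGFP arrays, whose siRNA is directed against a jellyfish protein that these mice lack. In the shRNA arm, 1 array labelled shYAP/TAZ, from intestine given plasmids that express shRNAs against both, was set against 1 shLacZ array, whose plasmid carries an shRNA against a bacterial gene. Each control array carries a label that assigns it to 1 array of the other kind, which gives siRNA comparisons 1, 2 and 3 and the shRNA comparison. The labels give neither the stretch of small intestine, nor the share of cells transfected, nor whether the arrays of a group came from separate mice, and the p-values here therefore cover only array-to-array spread, which may be technical.

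YAP and TAZ are coactivators held back by the Hippo pathway and bind DNA through TEAD factors; TAZ is the product of Wwtr1. Yap1 and Wwtr1 themselves were not measurably lower: the log2 differences in the siRNA arm were -0.12 for Yap1 (SE 0.32) and -0.28 for Wwtr1 (SE 0.36; limma, adjusted p = 1.00 for both). In the shRNA arm Yap1 stood at 7.25 on shYAP/TAZ against 7.35 on shLacZ, and Wwtr1 at 6.02 against 5.96. The groups are therefore named by their labels. Medians of the deposited intensity lay between 76.4 and 95.5 per array, and the lowest value of every array was just above 16. The median of the 12 epithelial markers was high on every array, at 10.39 to 10.96 on the log2 scale. Not every marker was that bright: Epcam, a surface protein of epithelial cells, stood at 11.47 to 12.38, but Cdx1 at 7.13 to 8.20.

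Cubilin is a very large extracellular protein with no membrane anchor of its own. In the ileum it is the receptor for vitamin B12, or cobalamin, bound to intrinsic factor, and it reaches the apical membrane only together with amnionless, whose tail carries the signals for uptake through clathrin-coated pits. In the kidney tubule the pair works beside megalin, a giant receptor of the LDL receptor family, and Dab2 is the adaptor that links such receptors to clathrin.

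The promoters of the 2 genes that form the receptor, Cubn and Amn, and the promoter of Dab2 with a TEAD letter match are shown, because YAP and TAZ act through TEAD. Each sequence runs 5′ to 3′ on the strand of the gene, from 250 bases before to 50 bases after the start site, as given by RefSeq for GRCm38.p6, with matches in capitals.

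Cubn, chr2:13491827-13492126, minus strand: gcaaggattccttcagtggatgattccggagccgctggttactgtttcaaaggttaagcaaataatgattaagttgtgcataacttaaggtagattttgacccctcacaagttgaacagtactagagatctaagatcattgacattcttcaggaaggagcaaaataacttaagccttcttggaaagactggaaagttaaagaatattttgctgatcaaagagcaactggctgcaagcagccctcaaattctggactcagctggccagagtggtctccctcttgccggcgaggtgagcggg

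Amn, chr12:111270846-111271145, plus strand: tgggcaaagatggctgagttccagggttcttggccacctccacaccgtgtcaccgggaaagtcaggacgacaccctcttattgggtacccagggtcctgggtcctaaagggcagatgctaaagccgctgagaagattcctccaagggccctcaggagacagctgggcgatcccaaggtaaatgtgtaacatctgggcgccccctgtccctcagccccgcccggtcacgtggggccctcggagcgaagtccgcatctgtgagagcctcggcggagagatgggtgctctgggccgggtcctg

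Dab2, chr15:6386498-6386797, plus strand: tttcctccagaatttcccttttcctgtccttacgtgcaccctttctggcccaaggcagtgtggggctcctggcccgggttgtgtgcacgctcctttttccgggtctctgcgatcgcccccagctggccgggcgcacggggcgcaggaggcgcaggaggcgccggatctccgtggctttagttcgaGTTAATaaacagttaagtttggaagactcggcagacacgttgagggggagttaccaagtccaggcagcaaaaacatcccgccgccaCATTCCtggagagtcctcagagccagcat

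Both strands were searched for the letters GGAATG of TEAD factors. The letters of 4 families of intestinal factors were searched likewise: TTTATG for the CDX family, GTTAAT for the HNF1 family, AGATAA for the GATA family and CAAAGTCCA for the HNF4 family. No match overlapped another in these windows. The Cubn and Amn windows held none of the 5. The Dab2 window held CATTCC, the TEAD letters read from the opposite strand, and GTTAAT. Among 32851 promoters of 300 bases, 14.7% held the TEAD letters, 11.9% the CDX letters, 7.1% the HNF1 letters, 11.2% the GATA letters and 0.475% the HNF4 letters. Of the 2 promoters not shown, that of Lrp2 held the CDX letters and the other one of Dab2 held the GATA letters. The Cubn window had 44.3% G and C and 5 CpG pairs, and the Amn window 62.3% and 15.

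Cubn was the gene with the lowest mean difference of all 19938, both in the siRNA arm and over the 4 comparisons. Its log2 intensity was 5.97, 10.75 and 8.90 on the arrays labelled siYAP/TAZ 1, 2 and 3, against 10.96, 11.52 and 11.69 on siGFP 1, 2 and 3. In the shRNA arm it was 4.37 on the array labelled shYAP/TAZ, against 10.95 on shLacZ. All 4 labelled YAP/TAZ arrays lay below all 4 control arrays, but siYAP/TAZ 2 came close to the controls while the other 3 were far from them. The control arrays spanned 10.95 to 11.69, and the YAP/TAZ arrays 4.37 to 10.75, so the spread lay almost wholly among the YAP/TAZ arrays.

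**Figure D1:**
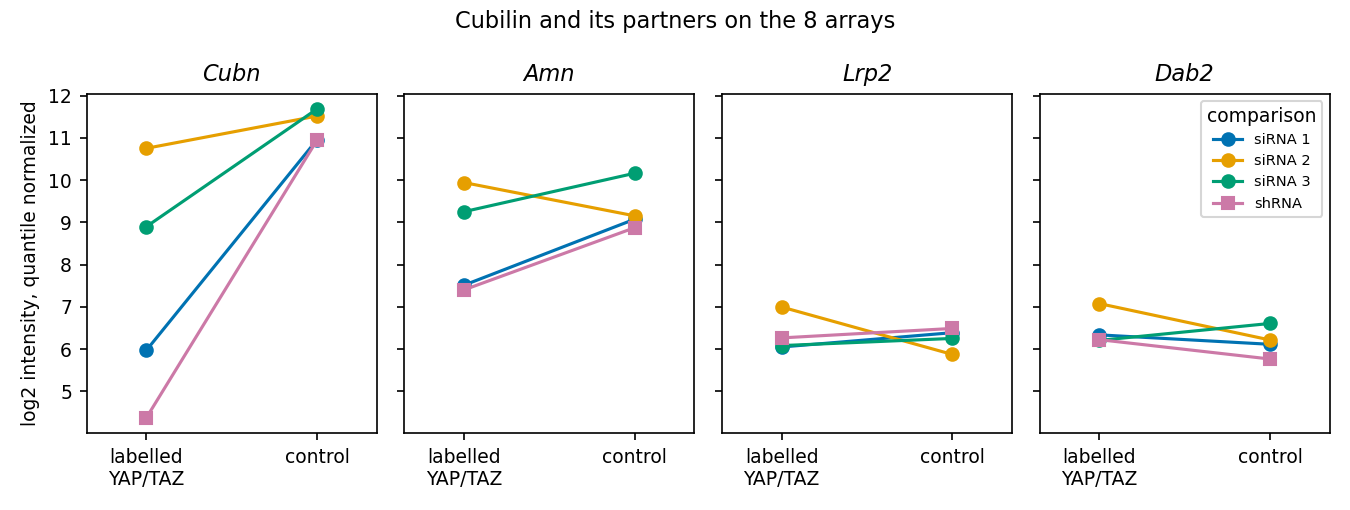
Log2 intensity (y axis, quantile normalized) of Cubn, Amn, Lrp2 and the brighter probe set of Dab2 on the 8 arrays; each line joins the array labelled YAP/TAZ (left) to its control (right), circles for siRNA and squares for shRNA. Cubn reached 4.37 on shYAP/TAZ, against 10.95 on shLacZ, while Lrp2 and Dab2 stayed between 5.76 and 7.08.

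The log2 differences of Cubn were -4.99, -0.76 and -2.79 in siRNA comparisons 1, 2 and 3 and -6.57 in the shRNA comparison. As ratios, the arrays labelled YAP/TAZ were lower than their controls by 31.7-fold, 1.70-fold, 6.90-fold and 95.2-fold. Among all genes, Cubn had the lowest difference in siRNA comparison 1 and in the shRNA comparison, was the 15th from the bottom in siRNA comparison 3 and only the 2960th in siRNA comparison 2. In the siRNA arm it averaged 8.54 ± 2.41 on the siYAP/TAZ arrays and 11.39 ± 0.38 on the siGFP arrays (SD, n = 3 each), a log2 difference of -2.85. Without siYAP/TAZ 1 that difference was -1.56. Of all genes, 8.95% were lower in all 4 comparisons, 2.99% were lower with no overlap between the siRNA groups, and 2.76% were at least 2-fold lower in the shRNA comparison; Cubn met all of these, and it was chosen for the first.

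In deposited intensities Cubn had 58.1, 1636 and 477 on siYAP/TAZ 1, 2 and 3, against 2059, 2936 and 3355 on siGFP 1, 2 and 3, and 22.1 on shYAP/TAZ against 2068 on shLacZ. The value on shYAP/TAZ is close to the lowest that any probe set took there, just above 16. With 15 subtracted from every intensity before the logarithm, the shRNA difference was -8.43 in place of -6.57, and those of siRNA comparisons 1, 2 and 3 were -5.37, -0.77 and -2.83. The order of the 4 comparisons and their sign were the same with arrays centred on the 75th percentile and with no normalization.

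Amn, the membrane anchor of the receptor, was lower in 3 of the 4 comparisons and higher in siRNA comparison 2, the one in which Cubn differed least. Its log2 intensity was 7.51, 9.94 and 9.25 on siYAP/TAZ 1, 2 and 3, against 9.07, 9.15 and 10.16 on siGFP 1, 2 and 3, and it was 7.40 on shYAP/TAZ against 8.87 on shLacZ. The siRNA groups overlapped, and siYAP/TAZ 1 and shYAP/TAZ were the lowest arrays of all 8 for Amn as they were for Cubn. Amn thus differed by -1.56, 0.79 and -0.91 over siRNA comparisons 1, 2 and 3, and by -1.47 with shRNAs.

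Amn did not pass the test in either design. With siRNAs its difference on the log2 scale was -0.56 (SE 0.60, 95% confidence interval -1.93 to 0.81; limma, adjusted p = 1.00), and it turned to 0.13 without siYAP/TAZ 1 and was -0.21 without siGFP 3 and -1.08 without siYAP/TAZ 2. Over the 4 comparisons, with the pairs that the labels assign, the mean was -0.79 (SE 0.35, 95% confidence interval -1.58 to 0.01; limma, adjusted p = 0.675). With 1 comparison left out, this mean was -0.53 without siRNA comparison 1, -1.31 without 2, -0.75 without 3 and -0.56 without the shRNA comparison (limma, adjusted p = 0.839, 0.0831, 0.762 and 1.00). Of all genes, 34.2% were lower in at least 3 of the 4 comparisons.

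Lrp2, the giant receptor that stands beside cubilin in the kidney, was dim, lower in 3 of the 4 comparisons and higher in siRNA comparison 2, the same signs as for Amn. It had 6.05, 6.99 and 6.08 on siYAP/TAZ 1, 2 and 3, against 6.39, 5.87 and 6.25 on siGFP 1, 2 and 3, and 6.26 on shYAP/TAZ against 6.49 on shLacZ. The groups overlapped, and siYAP/TAZ 2 was the single highest array. Lrp2 differed by -0.34, 1.12 and -0.17 over siRNA comparisons 1, 2 and 3, and by -0.22 with shRNAs. Between the siRNA groups Lrp2 differed by 0.20 on the log2 scale (SE 0.35, 95% confidence interval -0.60 to 1.01; limma, adjusted p = 1.00) and turned to -0.11 without siYAP/TAZ 2. Over the 4 comparisons it was 0.10 (SE 0.26, 95% confidence interval -0.49 to 0.69; limma, adjusted p = 0.972) and turned to -0.24 without siRNA comparison 2.

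Dab2, the clathrin adaptor, was likewise dim, with 6.34, 7.08 and 6.20 on siYAP/TAZ 1, 2 and 3, against 6.11, 6.21 and 6.61 on siGFP 1, 2 and 3, and 6.22 on shYAP/TAZ against 5.76 on shLacZ. For this brighter probe set siYAP/TAZ 2 was again the highest array, and the groups overlapped. Between the siRNA groups Dab2 differed by 0.23 on the log2 scale (SE 0.34, 95% confidence interval -0.54 to 0.99; limma, adjusted p = 1.00), turning to -0.04 without siYAP/TAZ 2, and 0.29 over the 4 comparisons (SE 0.23, 95% confidence interval -0.24 to 0.81; limma, adjusted p = 0.876). The second, dimmer probe set of Dab2 differed by 0.04, 0.10 and -0.78 over siRNA comparisons 1, 2 and 3, and by -0.08 with shRNAs, where the first stood at 0.46. Deposited intensities of Lrp2 were 51.4 to 119 and those of the brighter Dab2 probe set 57.4 to 126, around the median of a whole array.

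The mean difference of Cubn, -2.85 in the siRNA arm and -3.78 over the 4 comparisons, lay outside these intervals for the partners. Because Cubn was chosen for that fall, and its own spread does not enter, the contrast is only a description. Cubn was at -0.76 in siRNA comparison 2, and its siRNA difference was -1.56 without siYAP/TAZ 1. Both values lie within the siRNA interval of Amn, -1.93 to 0.81. In the siRNA arm limma called 0 of 19938 genes at an adjusted p under 0.05 and 237 at an unadjusted p under 0.05, or 1.19%. Over the 4 comparisons it called 4 genes, or 0.0201%: B3galt5, B3gnt7, Olfr165 and Rdh7, named after their values were seen. None of the 3 partners was among them, and with no pair term limma called 0.

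**Figure D2:**
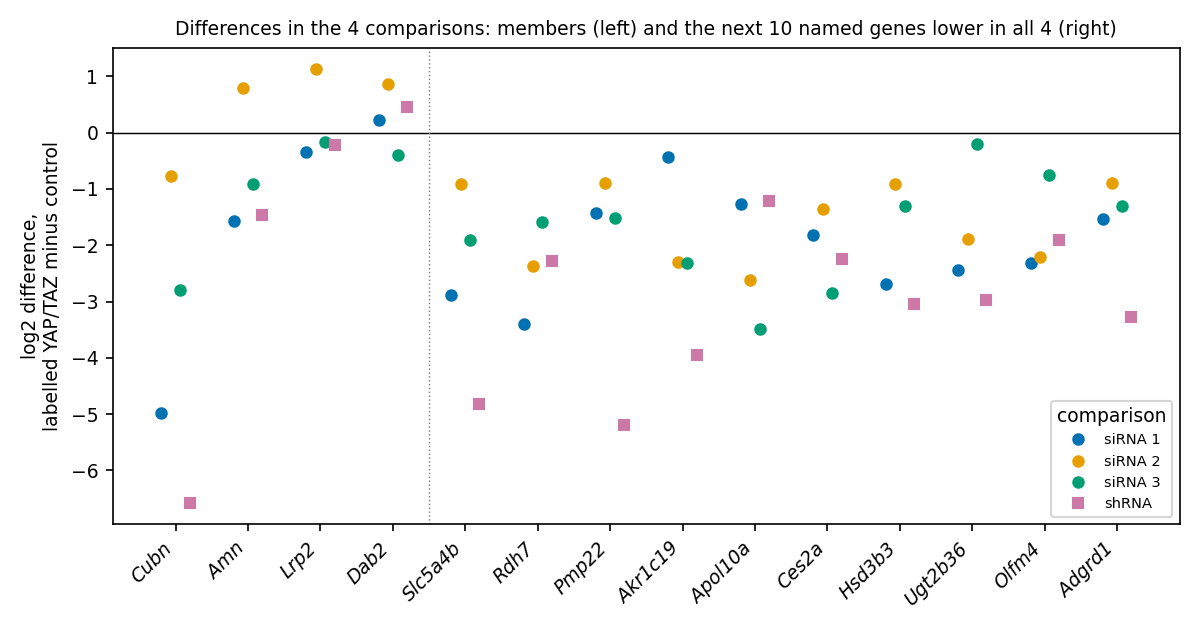
Log2 difference (y axis, labelled YAP/TAZ minus control) in each of the 4 comparisons for the 4 members, left of the dotted line, and for the next 10 named genes lower in all 4, right of it, ordered by mean. Cubn ran from -6.57 to -0.76, and only in siRNA comparison 2 was Amn higher, at 0.79.

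Dab2 is also made by macrophages and fibroblasts, and any of these genes can come from other cells of the isolate; in bulk RNA, fewer cells of a type and less RNA per cell cannot be told apart. For the 12 macrophage and myeloid markers the summed log2 level ran from 75.04 to 76.78 on the siYAP/TAZ arrays, against 75.20 to 76.90 on the siGFP arrays, and was 81.65 on shYAP/TAZ against 73.70 on shLacZ. In the shRNA arm the defining markers Adgre1 and Csf1r differed the same way as the sum. Adgre1 stood at 6.62 and Csf1r at 7.32 on shYAP/TAZ, against 5.20 and 5.82 on shLacZ. In that comparison the brighter probe set of Dab2 differed by 0.46 and the dimmer by -0.08. For the 12 fibroblast and smooth muscle markers the sum ran from 77.2 to 85.3 on the siYAP/TAZ arrays, against 80.2 to 86.7 on the siGFP arrays, with 84.6 on shYAP/TAZ and 80.7 on shLacZ. Col1a1, the collagen of fibroblasts, was at 9.37 on siYAP/TAZ 2, its highest array, which was also the highest for Lrp2 and Dab2. Of the 12 markers of that list 5 were highest and 2, Fn1 and Pdgfrb, lowest on that array, and its sum there, 85.27, was below the 86.69 of siGFP 3. On that array B and plasma cell markers stood high too, with a median of 7.83, against 4.78 to 6.94 on the other 7. The part of these cells in the values of Dab2 and Lrp2 was not tested.

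The levels of the partners were set against those of Cubn over all 8 arrays, for 3 relations, as a description with no test, since the Cubn values that chose it enter each of them and the arrays of a group or pair are not independent points. For Amn, Pearson's r was 0.88 and Spearman's rho 0.64. Leaving out the 2 arrays farthest from the Cubn median, shYAP/TAZ and siYAP/TAZ 1, brought r to 0.24, so the relation rests on those arrays. Within the 6 siRNA arrays r was 0.85, and it was 0.84 without siYAP/TAZ 1 and 0.81 without shYAP/TAZ. For Lrp2 r was 0.23 and rho -0.05, and for Dab2 r was 0.10 and rho -0.07. Without the 2 farthest arrays r was 0.04 for Lrp2 and 0.11 for Dab2, and within the siRNA arm 0.26 and 0.20.

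Cubilin is the receptor of the ileum for vitamin B12 bound to intrinsic factor, and the isolates differed widely in some ileal genes. Over the 8 arrays the r of the 8 listed ileal genes with Cubn ran from -0.54 for Slc51b, a basolateral bile acid transporter, to 0.55 for Mptx1, a pentraxin. Mptx1 was lower in all 4 comparisons, by -1.23, -0.78 and -0.80 with siRNAs and by -2.29 with shRNAs, and did not pass (limma over the 4 comparisons, mean -1.27, SE 0.27, adjusted p = 0.234). Fabp6, the bile acid binding protein of ileal enterocytes, stood at 8.75, 11.93 and 4.40 on siYAP/TAZ 1, 2 and 3, against 11.16, 4.24 and 10.45 on siGFP 1, 2 and 3, and at 4.27 on shYAP/TAZ against 4.33 on shLacZ. It was near the floor of the scale on siGFP 2 and shLacZ, arrays with Cubn at 11.52 and 10.95, and bright on siYAP/TAZ 1, where Cubn was at 5.97. Slc10a2, the ileal bile acid transporter, likewise ran from 4.55 to 9.28 across the groups, with differences of 0.72, 4.43 and -4.30 over siRNA comparisons 1, 2 and 3, and 1.98 with shRNAs. Mptx1 did not follow Fabp6 from array to array. Mptx1 was at 8.33 on siGFP 2 and 8.50 on shLacZ, and at 7.56 on siYAP/TAZ 2, the highest array for Fabp6. Its own highest array was siGFP 1, at 8.62, where Fabp6 was bright too. The 8 ileal genes had a median difference of -0.06 in the siRNA arm, with 5 lower and 3 higher in the mean, beside 53.6% and 46.4% of all genes, and medians of -0.44, 1.64 and -0.89 in its comparisons. The summed level of the list was 60.1 to 78.2 on the siYAP/TAZ arrays, against 60.6 to 77.4 on the siGFP arrays, and 63.2 on shYAP/TAZ against 62.6 on shLacZ. The part of ileal content in the Cubn values was not tested.

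Among epithelial markers, Epcam was lower in all 4 comparisons. It differed by -0.50, -0.20 and -0.34 over siRNA comparisons 1, 2 and 3, and by -0.33 with shRNAs, and did not pass (limma over the 4 comparisons, mean -0.34, SE 0.18, adjusted p = 0.754). Across the 8 arrays its r with Cubn was 0.82, and that of Vil1, the other defining marker of epithelium, was 0.62. Vil1 had mixed signs, at -0.57, 0.50 and -0.27 with siRNAs and -0.20 with shRNAs. Of the 12 epithelial markers 3 were lower and 1 higher in all 4 comparisons, beside 8.95% and 6.02% of all genes. The higher one was Elf3, an epithelial transcription factor, at 0.60, 0.28 and 0.56 with siRNAs and 0.33 with shRNAs (limma over the 4 comparisons, mean 0.44, SE 0.18, adjusted p = 0.634). The siRNA groups did not overlap for 1 higher marker, Elf3, and for 2 lower ones, Epcam and Krt8, beside 2.99% of all genes lower. The share of all genes higher without overlap is not given here. The summed level of the 12 was 124.9 to 127.1 on the siYAP/TAZ arrays, against 125.9 to 129.1 on the siGFP arrays, and 124.8 on shYAP/TAZ against 125.0 on shLacZ. The crypt base list stood lower in the mean for all 11 measured genes in the siRNA arm, beside 53.6% of all genes. Its median was -0.88, beside a median of -0.02 over all genes, and -0.83, -1.90 and -0.18 in siRNA comparisons 1, 2 and 3. Its summed level overlapped, at 68.0 to 84.8 on the siYAP/TAZ arrays against 70.5 to 94.2 on the siGFP arrays. It was 78.3 on shYAP/TAZ against 86.8 on shLacZ. Alpi, intestinal alkaline phosphatase, had an r of 0.94 with Cubn over the 8 arrays, and Lct, lactase, 0.76. Lct was lowest on siYAP/TAZ 1 and shYAP/TAZ, at 7.78 and 8.32. Of the 10 listed proximal enterocyte genes, Lct among them, 3 were lower and 7 higher in the siRNA mean, beside 53.6% and 46.4% of all genes. All 9 measured proliferation markers were highest on siYAP/TAZ 1, while their sum was 68.7 on shYAP/TAZ against 68.4 on shLacZ. The part of epithelial, enterocyte and crypt content and of proliferation in the Cubn values was not tested.

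**Figure D3:**
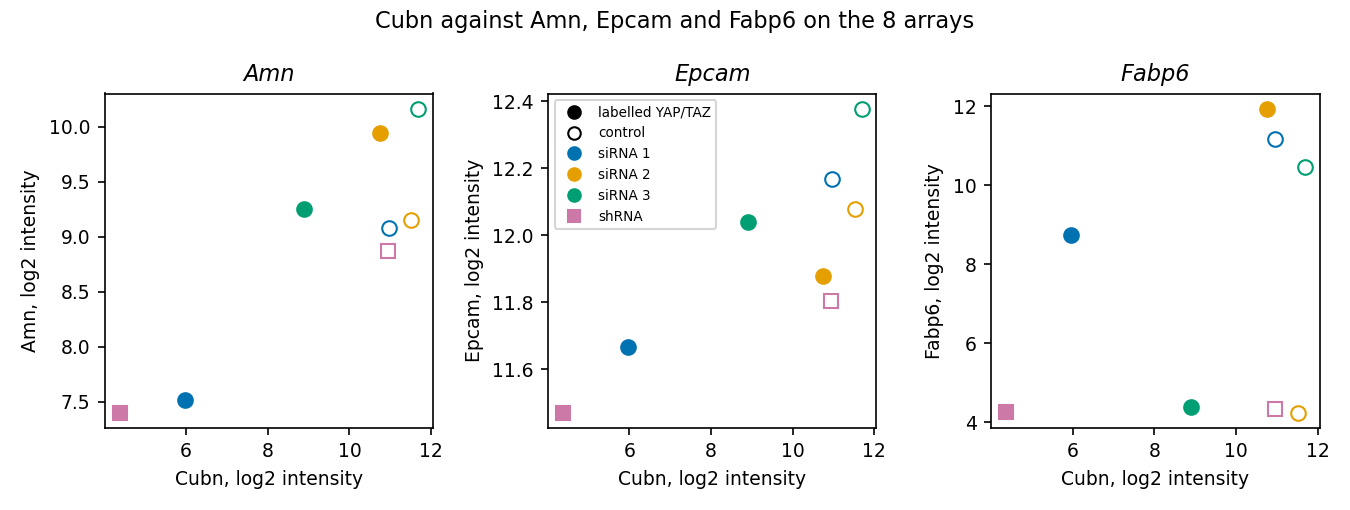
Log2 intensity of Amn, Epcam and Fabp6 (y axes) against that of Cubn (x axis) on the 8 arrays; filled symbols are labelled YAP/TAZ and open ones control, circles siRNA and squares shRNA. Amn and Epcam were lowest on the 2 arrays lowest for Cubn, shYAP/TAZ and siYAP/TAZ 1, while Fabp6 lay at 4.24 to 11.93 with no such order.

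The genes most like Cubn over the 8 arrays, by Pearson's r among 12519 brighter named genes, are given as a description with no test. Hsd3b3, a steroid dehydrogenase, came first with r = 0.98 and differed by -2.69, -0.92 and -1.30 over siRNA comparisons 1, 2 and 3, and by -3.04 with shRNAs. Slc49a4, Mettl7b, Ugt2b5, a glucuronosyltransferase, and Slc5a4b, a relative of the sodium-coupled glucose transporters, followed at 0.97, 0.97, 0.96 and 0.96. Slc10a5, of the bile acid transporter family, Slc22a4, an ergothioneine and carnitine transporter, Tmem144, Ebpl and Maoa, monoamine oxidase A, completed the 10 at 0.95 to 0.96. For 9 of these 10 the difference was negative in all 4 comparisons, beside 8.95% of all genes, and Ebpl was at 0.22 in siRNA comparison 2. These genes were picked for likeness to Cubn, itself chosen for its fall, so their shared direction follows largely from the choice. Their mean differences ran from -2.63 for Slc5a4b to -0.46 for Slc49a4, all smaller in size than that of Cubn. Amn ranked 46th, Lrp2 4473rd and Dab2 5600th in the same order. Hsd3b and Ugt2b genes have close relatives whose signal can be shared on the array.

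By size, the named gene after Cubn among those lower in all 4 comparisons was Slc5a4b, with differences of -2.88, -0.91 and -1.90 and, in the shRNA comparison, -4.82. Rdh7, a retinol dehydrogenase, followed with a mean of -2.41, Pmp22 with -2.26, Akr1c19 with -2.25, Apol10a with -2.15 and Ces2a, a carboxylesterase, with -2.07. Hsd3b3 at -1.99, Ugt2b36 at -1.88, Olfm4, a stem cell marker, at -1.80 and Adgrd1 at -1.75 completed the 10. Slc5a4b, Hsd3b3 and Adgrd1 share with Cubn the order of sizes, largest in the shRNA comparison, then siRNA comparison 1, then 3, then 2; the other 7 do not.

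The other steps of vitamin B12 handling were examined through a list of 16 genes, of which 15 were measured. None passed in either design (limma, adjusted), beside 0% of all genes in the siRNA arm and 0.0201% over the 4 comparisons. Over the 4 comparisons 3 were lower and 0 higher at an unadjusted p under 0.05, beside 4.7% lower and 2.79% higher among all genes. The median difference in the siRNA arm was -0.21, beside -0.02 over all genes, and it was -0.0175 without siYAP/TAZ 2 and -0.0897 without siGFP 1. Tcn2, transcobalamin, the carrier that takes cobalamin onward in blood, was 10.56, 10.82 and 11.35 on siYAP/TAZ 1, 2 and 3, against 11.62, 11.30 and 11.65 on siGFP 1, 2 and 3, and 10.95 on shYAP/TAZ against 11.85 on shLacZ. It was lower in all 4 comparisons, with a mean of -0.69 (SE 0.21; limma, adjusted p = 0.428), although siYAP/TAZ 3 lay above siGFP 2. Lmbrd1, which with Abcd4 lets cobalamin out of the lysosome, was lower in all 4 with a mean of -0.43 (SE 0.19; limma, adjusted p = 0.651), and Abcd4 stood at -0.28.

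Cd320, the cell surface receptor for transcobalamin, differed by 0.16 in the mean over the 4 comparisons, and Abcc1, an exporter of cobalamin, by 0.22. Cblif, intrinsic factor itself, was dim at 5.10 to 6.15 and differed by -0.13. Inside the cell, Mmachc, which strips the incoming cobalamin, stood at -0.31, Mtr, methionine synthase, at 0.34 and Mmut, methylmalonyl-CoA mutase, at -0.57. Mtr was higher in all 4 comparisons, by 0.13, 0.30, 0.03 and, in the shRNA comparison, 0.89 (limma, adjusted p = 0.809). Of the 15 genes, 2 were lower in all 4 comparisons and 1 higher, beside 8.95% and 6.02% of all genes.

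Of 34 genes of the endocytic machinery, 33 were measured. None of these passed (limma, adjusted), beside 0% of all genes in the siRNA arm and 0.0201% over the 4 comparisons. Their median difference was -0.02 in the siRNA arm, the same as over all genes, and 4 were lower and 3 higher in all 4 comparisons, beside 8.95% and 6.02% of all genes. Clcn5, a chloride and proton exchanger of endosomes that the kidney needs for uptake by megalin and cubilin, was lower in each. Clcn5 stood at 7.20, 7.15 and 7.35 on siYAP/TAZ 1, 2 and 3, against 7.87, 8.11 and 8.02 on siGFP 1, 2 and 3, and at 6.65 on shYAP/TAZ against 8.26 on shLacZ. The siRNA groups did not overlap, and the differences were closer to each other than those of Cubn, at -0.67, -0.96, -0.67 and -1.61 with the shRNA comparison last. The mean was -0.98 (SE 0.22, lower in 4 of 4 comparisons; limma, adjusted p = 0.274), and in the siRNA arm -0.77 (SE 0.27; limma, adjusted p = 1.00). Its r with Cubn over the 8 arrays was 0.83.

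Ctns, the cystine exporter of lysosomes, stood at a mean of -0.70 (SE 0.21; limma, adjusted p = 0.428) and Ctsl, a lysosomal protease, at 0.59 (SE 0.23; limma, adjusted p = 0.573), the highest of the list in the siRNA arm. Lrpap1, the chaperone of the LDL receptor family, differed by 0.05, -0.81 and 0.36 over siRNA comparisons 1, 2 and 3, and by -0.72 with shRNAs. Means over the 4 comparisons were -0.02 for Gipc1, a linker of megalin to the motor myosin VI, 0.11 for Myo6, that motor itself, and 0.22 for Numb, an adaptor. Ctns was lower and Ctsl higher in all 4 comparisons, while Lrpap1, Gipc1, Myo6 and Numb had no shared direction in all 4.

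**Figure D4:**
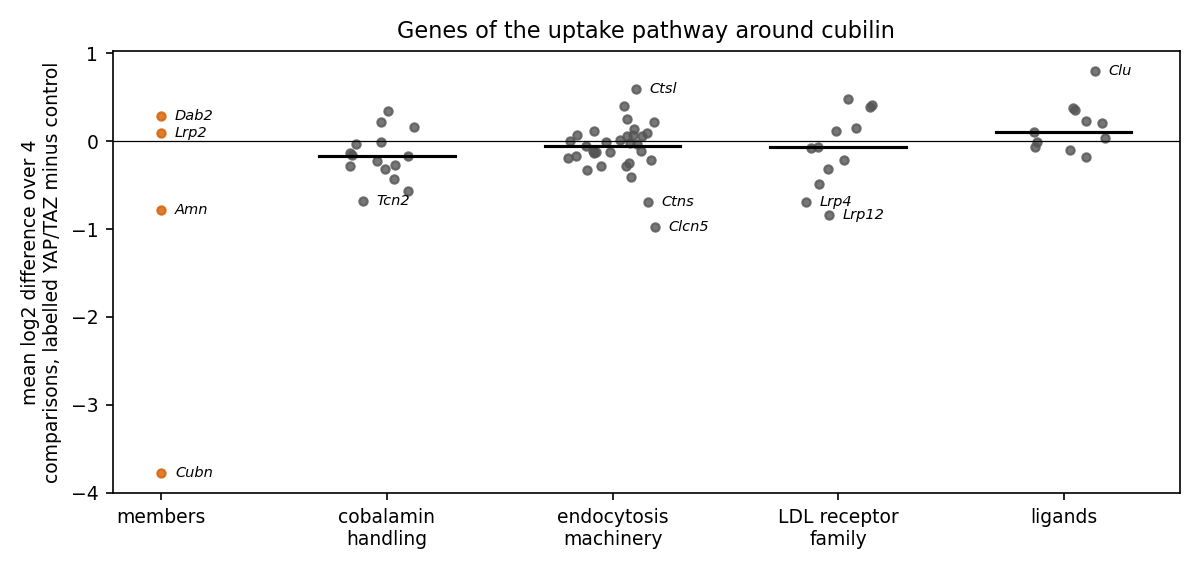
Mean log2 difference over the 4 comparisons (y axis, labelled YAP/TAZ minus control) of the 4 members and of each measured gene in 4 pathway lists, with horizontal spread only to part the points; black bars are list medians. Cubn stands at -3.78, while every gene of the lists lies between -0.98, for Clcn5, and 0.80, for Clu.

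Among 12 measured genes of the LDL receptor family other than Lrp2, none passed (limma, adjusted). Of all genes, 0% passed in the siRNA arm and 0.0201% over the 4 comparisons. The median difference of the family in the siRNA arm was -0.10. Lrp12 stood at 7.55, 7.50 and 7.87 on siYAP/TAZ 1, 2 and 3, against 7.88, 8.68 and 9.01 on siGFP 1, 2 and 3, and at 7.19 on shYAP/TAZ against 7.92 on shLacZ, so that siYAP/TAZ 3 and siGFP 1 nearly met. Its mean over the 4 comparisons was -0.85 (SE 0.21; limma, adjusted p = 0.321). Lrp1, the large receptor of many ligands, differed by -1.74, 0.77 and -0.38 over siRNA comparisons 1, 2 and 3, and by 0.08 with shRNAs, and Sorl1, a sorting receptor, by -0.83, 2.09, 0.61 and 0.03. Of the family 2 genes were lower in all 4 comparisons, Lrp12 and Lrp6, the Wnt coreceptor, and none was higher, beside 8.95% and 6.02% of all genes.

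For ligands that cubilin or megalin can take up, 11 of 12 genes were measured, and the median difference was -0.03 in the siRNA arm. None passed, beside 0% of all genes in the siRNA arm and 0.0201% over the 4 comparisons. Apoa1, the main protein of HDL and a cubilin ligand, was bright throughout and differed by -0.18, -0.51, -0.02 and -0.02, with the shRNA comparison last. Mt2, a metallothionein, differed by -0.13, 0.07, 1.43 and 0.14 in the same order. Clu, clusterin, a ligand of megalin, stood at 8.72 on shYAP/TAZ against 5.67 on shLacZ, a difference of 3.05, while its siRNA differences were 1.21, -0.46 and -0.60; it was named after its values were seen.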

How the data were processed

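The authors deposited linear intensity values of 28853 probe sets for each array. Per the labels, total RNA of isolated epithelial cells was made into biotinylated cRNA for Affymetrix whole-transcript arrays. How the scans became these values is not stated there. Intensities were put on the log2 scale and quantile normalized over all probe sets, since array medians lay up to 0.32 apart. Of 21789 probe sets naming 1 gene, symbols were updated by Entrez identifier for 21698 through a RefSeq table, and each of 19938 genes was represented by its brightest probe set. Dim genes were kept in every main test. The number of arrays limits the precision. Groups follow sample titles, and pairs follow the control labels. limma 3.58.1 in R 4.3.3 (lmFit, eBayes) compared the siRNA groups, and all 8 arrays with a pair term, with Benjamini-Hochberg adjustment over all genes; it was tested on simulated data. Correlations with Cubn are descriptions; the permutation test planned for them is not reported, since the values that chose Cubn enter it. Members and gene lists were chosen with earlier results of these data known. Genes are named by role, as the largest difference of a list in each direction in the siRNA arm, or as the 10 most like Cubn and the 10 most lowered in all 4 comparisons; predicted genes and olfactory receptors are passed over. Other genes and markers in the text were named after their values were seen. Some listed genes are not reported here. Alternatives were other scalings, 15 subtracted, the mean of probe sets, a filter on dim genes, other variance priors, array weights, a replicate block and leaving out arrays or pairs. Promoters are RefSeq's for GRCm38.p6.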

Additional observations from a re-analysis of the deposited data

Results flagged for a closer look

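For Cblif, which encodes intrinsic factor, all 3 siRNA comparisons ran one way and the shRNA comparison the other. The log2 differences were -0.53, -0.14 and -0.11 in siRNA comparisons 1, 2 and 3 and 0.24 in the shRNA comparison. Its mean over the 4 comparisons was -0.13 (SE 0.20; limma, adjusted p = 0.945), and the gene was dim. Of 19938 genes, 2566 were lower in all 3 siRNA comparisons, and 1785 were lower in all 4, so the pattern is not particular to Cblif. The difference between the arms was not tested.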

How the results depend on the processing

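Cubn was lower under every alternative run. With 1 array or comparison left out that sign was fixed beforehand, since all its YAP/TAZ arrays lay below all its controls. Only the size could change: its siRNA difference was -2.31 with array weights and ran from -3.95 to -1.56 with 1 array left out. Its mean over the 4 comparisons ran from -4.78 to -2.85 with 1 comparison left out. The siRNA difference of Amn was 0.036 with array weights. With 1 array left out it ran from -1.08 to 0.13, that of Lrp2 from -0.11 to 0.37 and that of Dab2 from -0.041 to 0.395; the mean of Lrp2 over the 4 comparisons ran from -0.24 to 0.24 with 1 comparison left out. limma's count of called genes in the siRNA arm, 0 in the main setting, ran from 0 to 13 with 1 array left out, reaching 13 without siYAP/TAZ 1. Over the 4 comparisons the count was 15 after centring on the 75th percentile, 19 with no normalization, 2 with 15 subtracted and 8 without the dimmest genes. It was 0 with no pair term, an alternative chosen after seeing the data that left Amn at -0.79 (adjusted p = 1.00), and ran from 1 to 26 with 1 comparison left out. Genes lower in all remaining comparisons numbered 2566 to 3441 when 1 was left out, where fewer signs have to match. The r of Cubn with Amn was 0.85 within the siRNA arm, 0.24 without the 2 farthest arrays, and 0.81 to 0.84 with 1 of these left out, chosen after seeing the data. The r of Cubn with Dab2 was -0.0008 with probe sets averaged. The median of the ileal list was 0.0057 after centring on the 75th percentile. With 1 array left out it ran from -0.67 to 0.45, that of cobalamin handling from -0.30 to -0.0175, that of the endocytosis machinery from -0.15 to 0.023 and that of the LDL receptor family from -0.30 to 0.10. Apart from these alternatives' own construction, the cause was not tested.

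Replicate numbers were checked by correlating deviations from group means: same-numbered siRNA arrays gave 0.75, -0.13 and 0.57. The labels assign these pairs without saying what a pair shares, and siYAP/TAZ 2 correlated better with siGFP 3, at 0.58. With the replicate block limma called 1 gene in the siRNA arm, and Amn differed by -0.56 (adjusted p = 1.00). Dim signal limits Lrp2 and Dab2, and the floor of the scale limits Cubn on shYAP/TAZ.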
